A study of Mus musculus with 3 samples.

Results

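Natural killer (NK) cells with counts of cell cycle genes, called cycling NK cells here, were examined in lung and blood. They were chosen by 4 genes of the cell cycle that were read in the same cells, and 100 of the 208 cells chosen passed neither of the wider gene lists of S phase and of G2 and mitosis described below. A cell was a member when at least 1 unique molecular identifier (UMI, 1 captured RNA molecule) was counted for 2 or more of Mki67, Top2a, Birc5 and Cdk1. Of 21113 cells assigned to lung or blood, 208 were members, 18758 had no count of any of the 4 genes and 2147 had a count of exactly 1 of them. Because the members were chosen on these 4 genes, their levels are given as a description and were not tested.

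The cells came from wild-type female mice of 9 weeks, naive or killed 6 h or 14 days after an intravenous injection of 100000 cells of PyMT, a mouse mammary tumor line that seeds the lung. Viable NK1.1+ NKp46+ cells of both tissues were collected by sorting, and each tissue carried its own TotalSeq barcode antibody, B0304 for lung and B0306 for blood. Each time point was 1 droplet library holding both tissues, mice were pooled and no cell could be traced to a mouse, so time points were compared without a test. Lung NK cells here include cells in the lung vessels, and the 14-day lungs carried metastases. The libraries gave 8043 assigned cells from naive mice, 7426 at 6 h and 5644 at 14 days, with a median of 6754 UMIs per cell, and the members of a sample held between 324624 and 671750 UMIs together. Pairs of libraries shared between 7 and 16 cell barcodes.

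A dividing cell passes through G1, copies its DNA in S phase, checks and prepares in G2 and separates its chromosomes in mitosis. Retinoblastoma proteins hold back E2F transcription factors in resting cells, cyclins with their kinases release them, and E2F then drives the replication genes, whereas the genes of mitosis peak later through CHR and CCAAT promoter elements. NK cells mature mostly in the bone marrow, divide there and after IL-15 or other cytokine signals, and mature circulating cells are mainly at rest.

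The 4 genes that chose the cells act late in this sequence. Mki67 coats mitotic chromosomes, Top2a untangles the copied DNA strands, Birc5 (survivin) guides chromosomes as part of the passenger complex and Cdk1 is the kinase that starts mitosis. The 250 bases before the start of each gene are shown because 3 of the 4 held the promoter elements named above. The sequences are from RefSeq on GRCm38.p6, written on the strand of the gene, with capitals for matches on either strand to the CHR element TTTGAA, the CCAAT box CCAAT and the E2F site TTTCGCGC. These 3 motifs did not overlap one another.
Mki67 (chr7:135716380-135716629, minus strand): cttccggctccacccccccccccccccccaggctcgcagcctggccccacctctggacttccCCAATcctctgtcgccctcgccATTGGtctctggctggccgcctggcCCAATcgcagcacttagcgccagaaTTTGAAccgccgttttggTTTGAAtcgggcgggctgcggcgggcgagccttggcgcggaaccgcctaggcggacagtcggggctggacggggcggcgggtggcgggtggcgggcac
Top2a (chr11:99024190-99024439, minus strand): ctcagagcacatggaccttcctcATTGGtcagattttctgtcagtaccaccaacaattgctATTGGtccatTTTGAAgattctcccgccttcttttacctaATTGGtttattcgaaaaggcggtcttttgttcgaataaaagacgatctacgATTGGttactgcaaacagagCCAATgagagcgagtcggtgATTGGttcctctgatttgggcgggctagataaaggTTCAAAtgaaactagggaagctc
Birc5 (chr11:117848987-117849236, plus strand): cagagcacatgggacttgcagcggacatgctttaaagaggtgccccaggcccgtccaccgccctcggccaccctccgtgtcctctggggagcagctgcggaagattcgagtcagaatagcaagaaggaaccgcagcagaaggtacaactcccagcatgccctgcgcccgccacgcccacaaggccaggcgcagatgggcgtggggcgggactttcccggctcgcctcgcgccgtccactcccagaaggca
Cdk1 (chr10:69352913-69353162, minus strand): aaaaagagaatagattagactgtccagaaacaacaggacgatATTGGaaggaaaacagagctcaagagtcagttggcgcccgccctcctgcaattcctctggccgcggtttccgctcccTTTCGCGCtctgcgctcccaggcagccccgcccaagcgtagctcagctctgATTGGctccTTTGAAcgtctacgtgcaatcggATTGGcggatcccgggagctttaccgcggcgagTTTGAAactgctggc
Mki67, Top2a and Cdk1 each held 2 CHR matches, and they held 3, 6 and 3 CCAAT matches in this order. Cdk1 alone of the 4 held the E2F letters, 1 time. Birc5 held none of these letters in this window. Of all 27025 mouse promoters of this length, 16.3% held a CHR match, 34.5% a CCAAT match and 0.255% the E2F letters. Among the other genes used to mark G2 and mitosis, 43 of 50 had a promoter in the table, and of these 37.2% held a CHR match and 76.7% a CCAAT match. Of the replication-dependent and variant histone genes, 21 of 22 had a promoter, 47.6% with a CHR match and 100% with a CCAAT match. Of the S phase genes 31 of 43 had a promoter, too few for a comparison, and of these 16.1% held a CHR match and 71% a CCAAT match. A match is a description of the letters, not of binding, and no share was tested.

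Top2a had a count in 183 of the 208 members (88.0%) and Mki67 in 158 (76.0%). Cdk1 had a count in 115 members (55.3%) and Birc5 in 67 (32.2%). Mki67 was at 313, 251, 265, 302, 306.4 and 189 counts per 1000000 UMIs (CPM) in the members of naive lung, naive blood, 6 h lung, 6 h blood, 14-day lung and 14-day blood. In the same order Top2a was at 408, 392, 429, 459, 447 and 291 CPM. The 14-day blood members were the lowest of the 6 for both genes. Birc5 ranged from 65.7 CPM in naive lung to 154 CPM in naive blood, and Cdk1 from 77.2 CPM in naive blood to 109 CPM in naive lung. The most frequent combinations were Mki67 with Top2a in 69 cells, Top2a with Cdk1 in 45 cells and all 4 genes in 39 cells.

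The rule has its threshold between 1 and 2 genes, and 140 of the 208 members sat just inside it with exactly 2. In those 140 cells Mki67 was at 84.3 CPM, Top2a at 121, Birc5 at 10.5 and Cdk1 at 41.0. In the 2147 cells just outside, with exactly 1 gene, Mki67 was at 27.2 CPM, Top2a at 96.0, Birc5 at 3.69 and Cdk1 at 14.1, and for 1391 of them (64.8%) the gene was Top2a. Another 29 members had exactly 3 genes. Members held more RNA counts than the other cells, with a median of 12885.5 UMIs against 6611 in the cells with none, and 11402, 13725 and 17220 in the cells with exactly 2, 3 and 4 genes. A deeper cell has more chances to show a rule gene, so comparison cells matched to each member on UMI count are given beside the results below.

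Free RNA in the droplets was measured beside the members. From the counts of single genes of other cell types in barcodes of at most 100 counts, the share of counts of a cell that could be free RNA was at most 3.02%, 3.96% and 0.729% in the naive, 6 h and 14-day libraries. At those limits free RNA alone would give 0.116, 0.289 and 0.00622 members, and 75, 75 and 58 were observed. Each limit rests on 1 marker gene, the one that gave the lowest limit of those tried, so it may be too low. The marker differed by library (Hba-a1 with 1 count in cells, Ms4a1 with 17 and S100a9 with 0). The part of free RNA in the members was not tested.

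Members were rare in every sample. They made up 37 of 3676 naive lung cells (1.01%, 95% exact binomial interval 0.710 to 1.38) and 38 of 4367 naive blood cells (0.870%, 0.616 to 1.19). At 6 h they were 50 of 4680 lung cells (1.07%, 0.794 to 1.41) and 25 of 2746 blood cells (0.910%, 0.590 to 1.34). At 14 days they were 29 of 3575 lung cells (0.811%, 0.544 to 1.16) and 29 of 2069 blood cells (1.40%, 0.941 to 2.01). The intervals, which cover counting error only, overlapped for every pair of samples. Lung was above blood in the naive and 6 h libraries and below it at 14 days, and with 3 pairs the exact test cannot go below a two-sided p of 0.25. This order turned with the processing: at 14 days lung was at 0.396% and blood at 0.388% after each cell was thinned to 3000 UMIs, and without the cells of the top 5% of UMI counts lung was at 0.401% and blood at 0.410% in the naive library and at 0.607% and 0.613% at 6 h. With at least 3 of the 4 genes, the shares were 0.354, 0.275, 0.427, 0.182, 0.252 and 0.435% in the order naive, 6 h, 14 days with lung first. The 14-day blood share was the highest of the 6 under both rules, but after thinning the 6 h lung share of 0.431% was the highest.

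**Figure D1:**
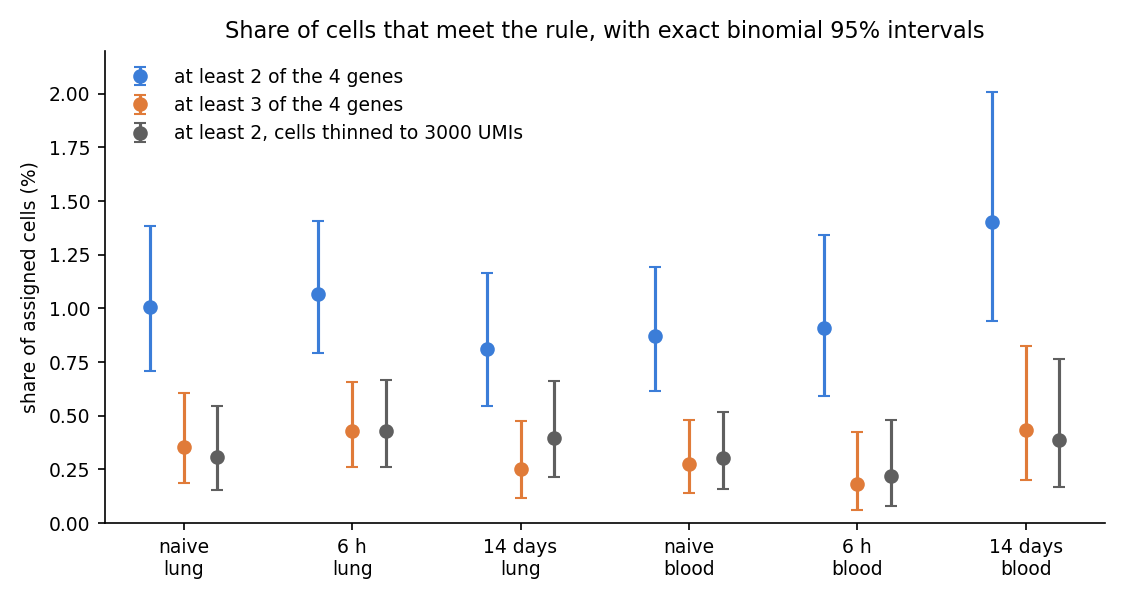
Share of cells that meet the rule in each of the 6 samples (y axis, percent of assigned cells), for at least 2 genes, at least 3 genes and at least 2 after thinning, with 95% exact binomial intervals as bars. The main shares run from 0.811% in 14-day lung to 1.40% in 14-day blood, and their intervals overlap.

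Whether the label holds was checked with the S phase genes (43) and the G2 and mitosis genes (50, without the 4 rule genes) commonly used to score the cycle. Summed over the S phase list, members held 3598 to 5227 CPM in the 6 samples (median 4068), and cells with none held 949 to 1196 (median 1066), so the groups did not overlap. For the G2 and mitosis list the members held 3954 to 6034 CPM and the cells with none 1484 to 1860. The lowest S phase sum of the members was in 6 h blood and the highest in naive lung. The lowest G2 and mitosis sum was in 14-day blood and the highest in naive blood.

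After each cell was thinned to 3000 UMIs, a cell was counted past a list when it held more counts of it than 99% of the cells with none, which was more than 9 for S phase and more than 12 for G2 and mitosis. Of the 208 members, 38 passed S phase alone, 16 G2 and mitosis alone, 54 both and 100 neither. Without thinning, on counts per 10000, 57.7% passed either list in place of 51.9%. By number of rule genes, 38 of 39 cells with all 4 (97.4%), 25 of 29 with 3 (86.2%) and 45 of 140 with 2 (32.1%) passed either list, against 3.55% of cells with exactly 1 and 1.37% of cells with none. The label of cycling cells therefore held for nearly all cells with 3 or 4 of the genes, whereas most cells with exactly 2 did not pass either list at this depth. Of the cells with all 4 genes, 35 passed both lists, while 29 of the 45 that passed with exactly 2 genes did so on S phase alone. The 99% line is a range and not a type, and 38 members lay within 2 counts of it.

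**Figure D2:**
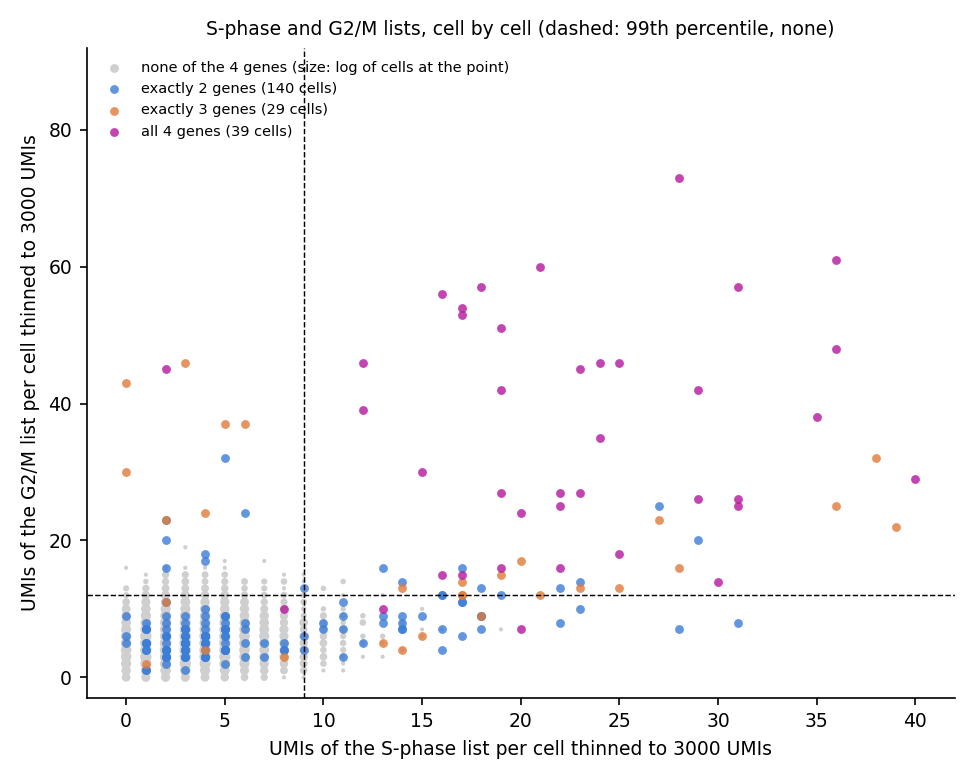
Counts of the S phase list (x axis) against the G2 and mitosis list (y axis) in each member after thinning to 3000 UMIs, colored by the number of rule genes, with cells with none in gray and dashed lines at the 99th percentile of cells with none. Of the 39 cells with all 4 genes, 35 lie past both lines, and 95 of the 140 cells with exactly 2 lie past neither.

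The members were next compared with the cells with none across all genes, to see what else they expressed. Counts were summed per sample, giving 6 pairs of member and comparison sums, and tested with edgeR's quasi-likelihood test with the pair as a block. Lung and blood of a time point shared 1 library, so the 6 pairs are not 6 independent pools of mice. With the tissues summed, which leaves 3 pairs, 1636 of 12276 genes were higher and 1336 lower. Of 10954 genes tested, 1529 were higher in the members (14%) and 1361 lower (12.4%) at a Benjamini-Hochberg adjusted p under 0.05. The median log2 difference over all genes tested was -0.06. Counts of lists below are over tested genes and are to be read against these shares. In all 6 pairs 1122 genes were higher (10.2%) and 1742 lower (15.9%). A total of 67 genes passed the filter on low counts through the members alone, with no sum of cells with none over it. Such a gene had to differ. A gene with only some sums of cells with none over the filter also needed a member sum to pass and is not counted. The 67 and the numbers given for lists below are therefore minimums. With comparison cells of the same UMI count, 642 of 6019 genes tested were higher and 504 lower. Fewer genes were tested because the matched sums were smaller, which raised the CPM that the low-count filter asked for. There too a gene could pass through the members alone and then had to differ. The number of such genes is not given, so matched tallies of higher genes below may be in part fixed by the filter. The counts and their split depended on depth and scaling: 122 genes were higher and 70 lower without the top 5% of UMI counts, which left 100 members, 266 were higher and 693 lower with the rule applied after thinning, and 1339 were higher and 1845 lower with library totals in place of TMM scaling.

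Genes that copy DNA were higher throughout. All 41 genes of origin licensing and the replication fork were higher, with a median log2 difference of 2.37, and 2 of the 41 had passed the filter through the members alone. With matched comparison cells 31 of 32 tested were higher, a tally that the filter of that comparison may in part have fixed. Pcna, the sliding clamp of DNA polymerase, was at 328 CPM in the lowest member sum, 354 in the median and 445 in the highest, against 77.9, 90.0 and 101 in the cells with none. All member sums lay above all comparison sums, with a log2 difference of 2.13 ± 0.08 (SE, n = 6 pairs, edgeR adjusted p = 1.41e-47). Mcm5 and Mcm3, subunits of the replicative helicase, were higher by 3.14 ± 0.14 and 3.15 ± 0.12 on the log2 scale. Lig1, which joins the fragments of the lagging strand, was higher by 3.39 ± 0.12. Pclaf, a partner of PCNA that is not on this list, had 756 counts in the 208 members and 112 in the 18758 cells with none. With so few counts in the cells with none, it may have passed the filter of 1.33 CPM through the members alone. Its fitted log2 difference of 8.38 ± 0.23 is therefore given as a description. Clspn, an adaptor of the replication checkpoint, was at 118 CPM on average against 2.03.

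All 18 genes of nucleotide synthesis were higher, with a median log2 difference of 1.72, and 10 of the 14 tested against matched cells. Rrm2, the subunit of ribonucleotide reductase that is made in S phase, was at 70.0, 101 and 141 CPM in the lowest, median and highest member sum and at 1.23, 2.05 and 2.23 CPM in the cells with none. Its log2 difference was 5.82 ± 0.25 and that of its partner Rrm1 was 2.69 ± 0.15. The lowest sum of Rrm2 in cells with none lay below the 1.33 CPM of the filter, so Rrm2 needed a member sum to pass it. At 3000 UMIs, Rrm2 was counted in 17.8% of members (37 of 208) and in 0.568% of cells with none. Dut, which removes dUTP before it enters DNA, was higher by 3.51 ± 0.11.

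Histone genes package the new DNA, and 18 of the 20 tested were higher, with a median log2 difference of 2.48; 3 of these 20 passed the filter through the members alone. Against matched cells 11 of 13 were higher. Their near-identical copies share reads and most of their RNAs lack the poly(A) tail that this assay captures, so single histone values are uncertain. H1f5, a linker histone, was at 100.0, 392 and 638 CPM in the lowest, median and highest member sum and at 3.16, 7.16 and 12.5 CPM in the cells with none (log2 difference 5.65 ± 0.51). H3c3 had 178 counts in members and 7 in cells with none, and H2ac4 had 228 and 200. H2az1, a variant made throughout the cycle, was at 2614 CPM against 1580 (log2 difference 0.80 ± 0.07). Slbp, which binds the stem loop of histone RNAs, was higher by 0.95 ± 0.08.

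Among 18 cyclins, kinases and their partners, 14 were higher and 2 lower, and 3 of the 18 had passed the filter through the members alone. With matched cells 4 of 8 were higher and 2 lower. Ccna2, the cyclin A of S phase and G2, had 133 counts in members and 14 in all cells with none, and its sums were 21.3 to 80.1 CPM against 0 to 0.194 CPM. At 3000 UMIs it was counted in 8.17% of members and 0.0378% of cells with none. Ccnb2 and Ccnb1, cyclins of mitosis, had fitted log2 differences of 6.79 ± 0.40 and 4.32 ± 0.54, the latter on 23 and 53 counts. In the cells with none Ccna2 and Ccnb1 lay below the 1.33 CPM of the low-count filter. They passed it through the members alone and had to differ, and Ccnb2 may have done so too, so these differences are given as a description. Cks1b, a subunit bound by cyclin-dependent kinases, was higher by 4.69 ± 0.20, and Cdk4, a kinase of G1, by 1.34 ± 0.11. The other kinase of G1, Cdk6, was at 71.2 CPM against 61.6 (log2 difference 0.25 ± 0.13, adjusted p = 0.148). The 2 that fell were D-type cyclins of G1, Ccnd3 by 0.60 ± 0.07 and Ccnd2 by 0.52 ± 0.09 on the log2 scale, lower in 6 of 6 pairs. Ccnd3 was at 453 to 579 CPM in members and at 749 to 941 CPM in cells with none, without overlap.

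Of 18 transcription factors of the cycle and their partners, 12 were higher and none was lower, and 3 of the 18 had passed the filter through the members alone. With matched cells 5 of 10 were higher. E2f1, which switches on replication genes, was at 21.6, 67.3 and 89.3 CPM in the lowest, median and highest member sum and at 1.04, 1.49 and 1.60 CPM in the cells with none. Its log2 difference was 5.44 ± 0.30. The lowest sum of E2f1 in cells with none lay below the 1.33 CPM of the filter, so E2f1 needed a member sum to pass it. E2f2, a related activator, was higher by 3.45 ± 0.24.

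Most genes of mitosis that were tested were higher, but many of them had passed the filter through the members alone. Of the kinetochore and spindle checkpoint genes 22 of 24 were higher, of the mitotic kinases and passenger complex 10 of 11 and of the spindle motors and cytokinesis genes 25 of 26. Of the genes tested, 9, 6 and 9 had passed through the members alone, and such genes had to differ. Matched cells left 9 of 10, 5 of 5 and 11 of 12 higher, tallies that the filter of that comparison may in part have fixed. Spc24 and Cenpf, both of the kinetochore, had 247 and 152 counts in members and 124 and 67 in the far more numerous cells with none. Aurkb, the kinase of the passenger complex, had 96 and 69 counts, Cdca8 of the same complex 195 and 200, and Pbk, a mitotic kinase, 73 and 5. Nusap1 and Tpx2, which build the spindle, were higher by 6.09 ± 0.27 and 5.85 ± 0.32.

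Tubulin genes and a tubulin regulator were counted often. Stmn1, which takes microtubules apart, was at 804, 893 and 1015 CPM in the lowest, median and highest member sum and at 31.2, 40.1 and 61.1 CPM in the cells with none. The log2 difference was 4.51 ± 0.12. The tubulins Tuba1b and Tubb5 were higher by 2.71 ± 0.07 and 2.44 ± 0.07.

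Of 23 genes that pack or hold chromosomes together, 21 were higher and 1 lower, and 4 of the 23 had passed the filter through the members alone. Matching left 14 of 17 higher and none lower. Hmgb2, a DNA-bending chromatin protein, was at 1418 to 2355 CPM in member sums and 300.0 to 470 CPM in the cells with none (log2 difference 2.46 ± 0.10). Lmnb1, a lamin of the nuclear envelope, was higher by 2.45 ± 0.10 and Smc4, a condensin subunit, by 1.42 ± 0.08. The anaphase-promoting complex, which marks mitotic proteins for destruction, had 6 of 18 genes higher, with 1 of the 18 through the members alone, and 4 of 12 against matched cells. Its inhibitor Fbxo5 was higher by 3.97 ± 0.24 and its subunit Anapc5 by 1.06 ± 0.10, while the subunit Cdc27 was at 58.1 CPM in both (log2 difference 0.06 ± 0.14, adjusted p = 0.787). Of 20 genes of DNA repair and checkpoints, 16 were higher and 1 lower, with 2 of the 20 through the members alone, and 8 of 14 were higher and none lower against matched cells. Neil3, a DNA glycosylase, had 162 counts in members and 12 in cells with none.

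Genes of growth had smaller differences. In oxidative phosphorylation 18 of 20 genes were higher with a median log2 difference of 0.41, and 14 of 20 against matched cells. Cox5b, of the respiratory chain, was at 487 CPM against 335 (0.61 ± 0.07). In ribosome biogenesis 11 of 20 were higher, with Npm1 of the nucleolus at 0.79 ± 0.07, but against matched cells 3 of 15 were higher and 1 lower. In glycolysis 8 of 16 were higher and 3 lower, and against matched cells 4 of 14 were higher and none lower. Gapdh was higher by 1.02 ± 0.07.

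**Figure D3:**
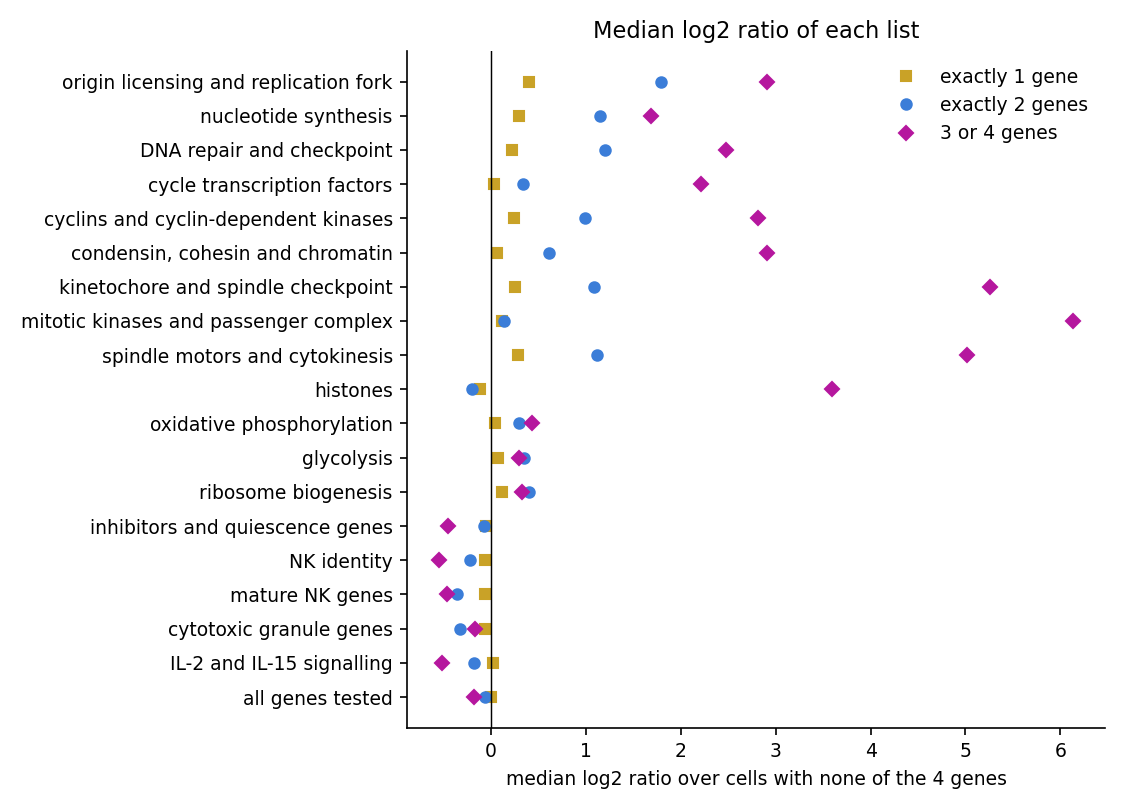
Median log2 difference from cells with none for each gene list (x axis), for cells with exactly 1, exactly 2 and 3 or 4 of the rule genes. The replication list is at 1.79 for exactly 2 genes and 2.91 for 3 or 4, NK identity at -0.55 and mature NK genes at -0.47 for 3 or 4. The medians of the mitosis lists rest in part on genes that passed the filter through the members alone.

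Genes that restrain the cycle were mixed. Of 18 tested, 5 were higher and 4 lower. Their log2 differences ran from -1.27 to 5.03 with a median of -0.16, and the genes named here are a part of the 18. Of the 18, 1 had passed the filter through the members alone. Matching left 3 of 16 higher and 2 lower. Cdkn1a (p21) was higher by 1.20 ± 0.20, at 12.9 to 62.5 CPM in member sums and 8.43 to 29.6 CPM in the cells with none, so the groups overlapped although all 6 pairs were higher. Cdkn1b (p27) fell by 0.51 ± 0.12 on the log2 scale, and this call was lost against matched cells (log2 difference -0.12). Btg1, an antiproliferative gene, was at 382, 538 and 861 CPM in the lowest, median and highest member sum and at 633, 1060 and 1617 CPM in the cells with none, with overlap between the groups, and fell by 0.82 ± 0.07 in 6 of 6 pairs. Klf2, a factor of quiescence and trafficking, fell by 0.47 ± 0.07, but against matched cells its log2 difference was 0.14.

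The genes with the most negative log2 differences that were lower in every pair and reached 50 CPM in either class were modest in size. Kcnj8, a potassium channel subunit, was at 4.68 to 33.9 CPM in members and 51.3 to 83.8 CPM in cells with none (log2 difference -1.85 ± 0.19). Kdm5b, a histone demethylase, fell by 1.28 ± 0.16, Mylip, a ubiquitin ligase that targets lipoprotein receptors, by 0.95 ± 0.10 and Txnip, which restrains glucose uptake, by 0.88 ± 0.09. Klra8 (Ly49H), an activating NK receptor, was at 565 CPM against 1074 (log2 difference -0.95 ± 0.26, adjusted p = 0.0486), a call that was lost in 8 of the alternatives, matched cells among them.

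**Figure D4:**
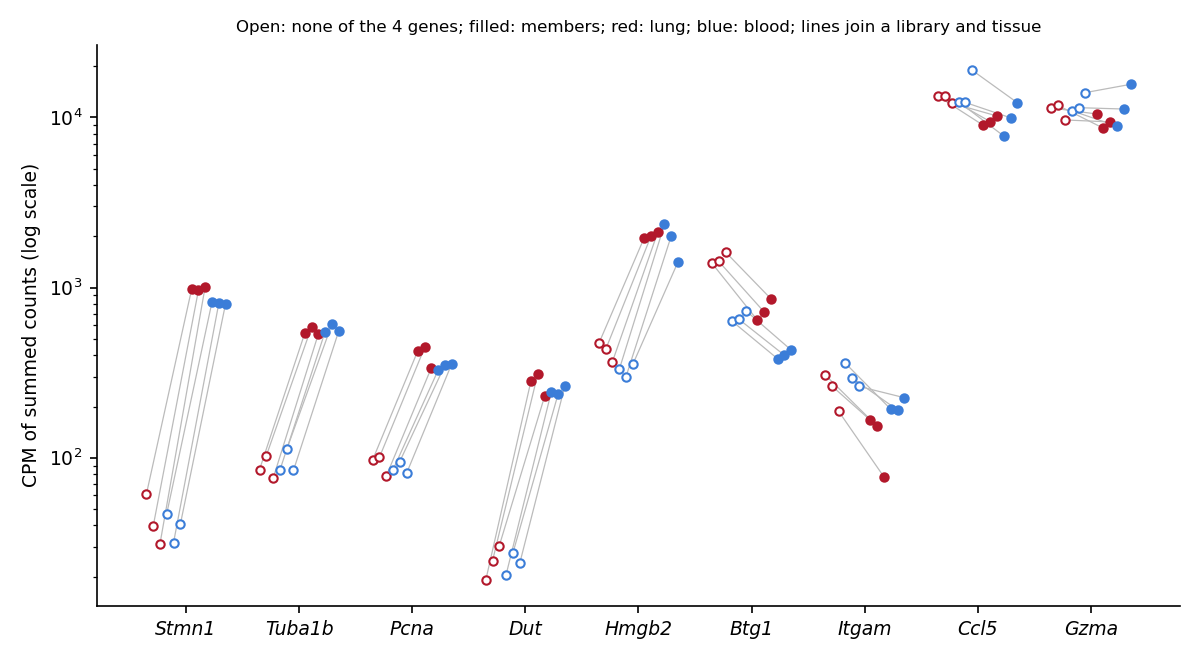
Levels of 9 named genes (y axis, CPM on a log scale) in the sums of cells with none (open) and of members (filled) in lung (red) and blood (blue), with lines joining the 6 pairs. Stmn1, Tuba1b, Pcna, Dut and Hmgb2 rise in all 6 pairs without overlap, Btg1, Itgam and Ccl5 fall in all 6, and Gzma falls in 5 and rises in 1.

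The label of NK cells was checked with markers. Ncr1, which encodes the sorted receptor NKp46, was counted in 99.5% of members and 98.1% of cells with none before thinning, and in 85.1% and 91.7% after it. Cd3e, a T cell marker, was counted in 0 of 208 members and in 0.41% of cells with none before thinning. The other CD3 chains did have counts: Cd3d was counted in 7.21% of members and 3.84% of cells with none, and Cd3g in 6.25% and 3.15%, also before thinning, while at 3000 UMIs both were counted in 1.44% of members and in 1.93% and 1.96% of cells with none. Of the 14 genes of NK identity, none was higher and 9 were lower, with a median log2 difference of -0.31. Fcer1g, an adaptor of activating receptors, fell by 0.44 ± 0.07 and Ncr1 by 0.29 ± 0.07, both in 6 of 6 pairs. Klrd1 (CD94) was at 960 CPM against 1109 (log2 difference -0.15 ± 0.07, adjusted p = 0.0993). Against matched cells 3 of the 14 were lower and 1 higher, and neither Fcer1g (-0.12) nor Ncr1 (-0.07) was called.

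Of 14 genes of mature NK cells, 9 were lower and 1 higher, with a median log2 difference of -0.40, and 2 were lower and 1 higher against matched cells. Itgam (CD11b), the integrin that rises as NK cells mature, was at 77.2, 179 and 225 CPM in the lowest, median and highest member sum and at 187, 279 and 359 CPM in the cells with none. The 14-day lung sums were the lowest of both groups, which overlapped. It fell by 0.68 ± 0.09 on the log2 scale in 6 of 6 pairs and remained lower against matched cells (-0.45). At 3000 UMIs Itgam was counted in 35.1% of members (95% exact interval 28.6 to 42.0) and 52.0% of cells with none. The lowest share of members was 13.8% in 14-day lung, where cells with none were at 39.7%. Zeb2, a factor of terminal maturation, fell by 0.57 ± 0.07 and also by 0.36 against matched cells. Klrg1, a receptor of terminal cells, was at 145 CPM against 175 (adjusted p = 0.161). The 1 gene that was higher was Lgals1 (galectin-1), by 0.53 ± 0.07.

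Of 14 genes of immature NK cells, 1 was higher and 3 were lower, and against matched cells none of 12 was higher and 3 were lower. Cd27, a receptor of less mature cells, was at 50.2 CPM against 58.6 (log2 difference -0.14 ± 0.14, adjusted p = 0.509). Il7r, the IL-7 receptor chain of innate lymphoid cells and immature NK cells, had 1 count in members against 3153 in cells with none. Its pooled log2 ratio was -6.04, with a 95% interval for counting error from -11.3 to -3.56. At 3000 UMIs it was counted in 0 of 208 members and in 2.57% of cells with none. Of 8 markers of type 1 innate lymphoid cells, all had a count in members, and together they were at 91.0 CPM against 149. All 8 were tested, and 1 was called lower and none higher.

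Of 13 cytotoxic granule genes, 5 were lower and none higher, but against matched cells none of 10 was lower and 1 was higher. Prf1 (perforin) fell by 0.52 ± 0.07, a call lost against matched cells (-0.11). Gzma was at 10720 CPM against 11530 (log2 difference -0.07 ± 0.07, adjusted p = 0.524) and was higher by 0.42 against matched cells. Gzmb was at 889 CPM against 1153 (adjusted p = 0.229). Gzmc had 3 counts in members and 2210 in cells with none (pooled log2 ratio -3.94, counting interval -6.22 to -2.39), and its call was lost without the 14-day library. The chemokine gene Ccl5 fell by 0.43 ± 0.07, with a log2 difference of -0.00 against matched cells. Of 17 genes of IL-2 and IL-15 signalling, 9 were lower and none was higher, and 2 of 11 were lower against matched cells. Il2rb, the receptor chain shared by both cytokines, fell by 0.33 ± 0.07 and by 0.32 against matched cells, and the survival gene Bcl2 fell by 0.47 ± 0.14 (adjusted p = 0.0353), which was lost in 5 alternatives, without the 14-day library among them.

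Of 13 residency and TGF-beta genes 5 were lower, of 15 interferon-stimulated genes 1 was higher, of 13 immediate early and heat shock genes 2 were higher and 3 lower, and of 9 effector chemokine and cytokine genes 1 was lower. Against matched cells 2 of 8 residency genes, 1 of 6 interferon-stimulated genes, 1 of 10 immediate early and heat shock genes and none of 7 effector genes were lower, and none of these lists had a higher gene.

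How far members with 2 genes resembled those with more was measured in the same way. The comparison of cells with exactly 2 genes and cells with none called 583 of 10745 genes higher (5.43%) and 392 lower (3.65%). For exactly 1 gene it called 429 of 11198 higher (3.83%) and 195 lower (1.74%). Among cells with exactly 2 genes, 35 of 41 replication genes and 12 of 18 nucleotide genes were higher, but 1 of 15 histones, 1 of 5 mitotic kinase genes and 12 of 32 G2 and mitosis genes. E2f1 was already higher by 4.85 in these cells, and Mcm3 by 2.79, while H1f5 was at 0.60 (adjusted p = 0.48) and Nusap1 at 1.66 (adjusted p = 0.12).

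Replication genes were at 927, 1094, 2578, 4762 and 6614 CPM in cells with 0, 1, 2, 3 and 4 of the rule genes, and histones at 2116, 2020, 2349, 3686 and 10739 CPM. Kinetochore genes were at 210, 233, 382, 1239 and 2523 CPM. NK identity genes were at 27388, 25258, 23240, 21940 and 22632 CPM. Replication genes were therefore raised at exactly 2 genes, where histones were near the level of cells with none. These are sums over cells that also differ in depth. In the test of cells with exactly 1 gene against cells with none, 22 of the 41 replication genes were already called higher, with a median log2 difference of 0.40.

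**Figure D5:**
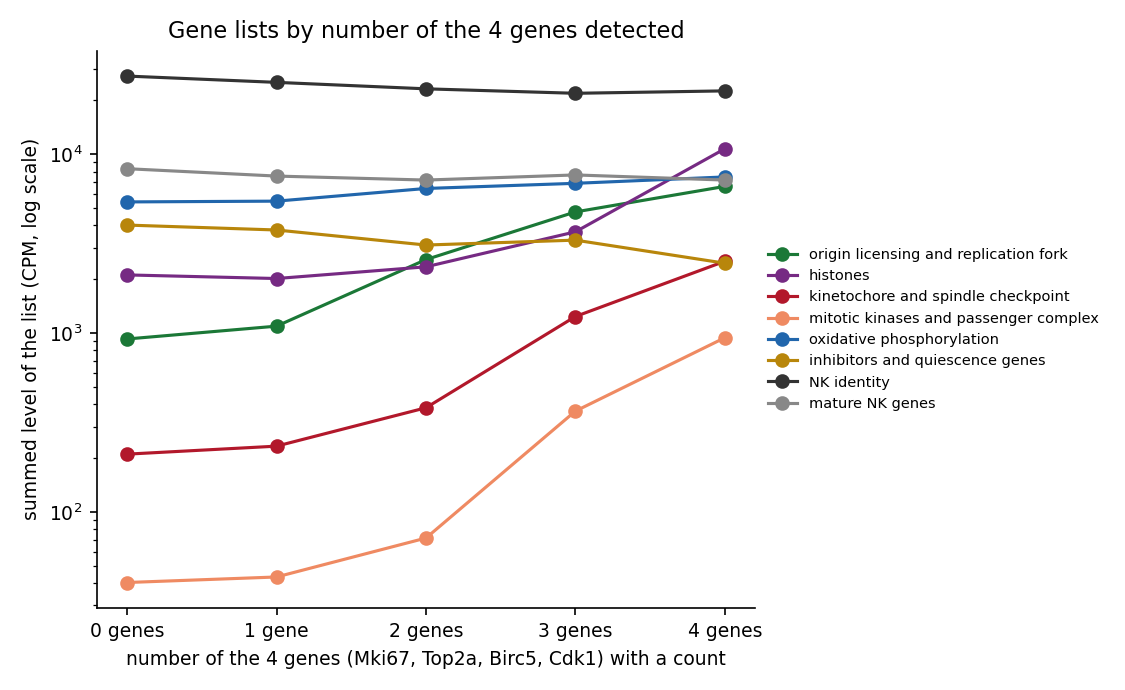
Summed level of gene lists (y axis, CPM on a log scale) in cells with 0, 1, 2, 3 and 4 of the rule genes (x axis). Replication genes go from 1094 CPM at 1 gene to 2578 CPM at 2, while histones go from 2349 CPM at 2 genes to 10739 CPM at 4.

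Within the members, cells with at least 3 genes were tested against those with exactly 2, and 416 of 4140 genes were higher (10%) and 331 lower (8%). All 14 spindle genes tested, of 26 on the list, and all 27 G2 and mitosis genes tested, of 50, were higher. So were 28 of 30 replication genes and 11 of 12 histones. A gene could pass the low-count filter here through the cells with at least 3 genes alone, and such a gene had to differ. The number of such genes is not given, so these tallies are in part fixed by the filter. The largest of the named differences were H1f5 at 6.28, Ccna2 at 6.23 and H3c3 at 6.22 on the log2 scale. These genes may have passed the filter in that way, so their differences are given as a description. Dut and Mcm3 differed by 1.48 and 0.77. None of 12 ribosome biogenesis genes passed the test, with Npm1 at 0.05 (adjusted p = 0.82). Bcl2 fell by 1.33 (adjusted p = 0.00054), Il2rb by 0.54 and Itgam by 0.59, and 5 of 14 NK identity genes were lower. More rule genes were counted in deeper cells, and the part of depth in these differences was not tested.

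The difference between members and cells with none was then compared between lung and blood. No gene of 10954 (0%) had a lung difference that departed from the blood difference in edgeR's interaction test at an adjusted p under 0.05, and the smallest adjusted p was 0.0939. At an unadjusted p under 0.05 in this test there were 563 of the 10954 genes. At an adjusted p under 0.05, leaving out 1 library gave 2 to 19 genes.

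Between time points, members were compared as single libraries with no test. A gene counted as past 2-fold when its CPM ratio itself reached 2-fold in either direction and it reached 50 CPM in either library. The interval of the ratio was not used, so these counts include genes whose counting error reaches inside 2-fold. In lung members 41 of 3949 genes were past 2-fold up at 6 h (1.04%) and 64 down (1.62%), and at 14 days 93 of 3951 were up (2.35%) and 175 down (4.43%). In blood members 75 of 4065 were up (1.85%) and 159 down (3.91%) at 6 h, and 59 of 4037 were up (1.46%) and 216 down (5.35%) at 14 days. In the lung cells with none, 1 gene was past 2-fold up and 0 down at 6 h, and 46 up and 82 down at 14 days, and in blood 0 and 0, then 2 and 2. These cells are far more numerous than the members, so their ratios have less counting error. Each member library held between 25 and 50 cells of a tissue, and several genes rested on 1 cell. The counts depended on the cells and genes used. Up and down together, 105 genes in lung and 234 in blood were past 2-fold at 6 h, which became 495 and 931 for members with at least 3 genes and 177 and 371 without mitochondrial and ribosomal protein genes. At 14 days 268 in lung and 275 in blood became 766 and 768 for members with at least 3 genes.

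Egr1, an immediate early factor, had 50 counts in 15 of the 6 h lung members, 23 of them in 1 cell, against 5 counts in naive lung members. In blood members the order was the opposite, with 1 count at 6 h and 60 in naive, and in cells with none the log2 ratio was -0.28 in lung and -0.39 in blood. The genes Wls, Tle3 and Gramd3 followed in lung members, with 44, 49 and 134 counts against 7, 8 and 27. The 95% counting intervals of the log2 ratio were 0.88 to 3.44 for Wls and 0.92 to 3.30 for Tle3, which reach inside 2-fold. In lung cells with none the log2 ratios of these 3 genes were -0.14, -0.14 and -0.08, and in blood members Wls had 20 counts against 29 (log2 ratio -0.01), Tle3 26 against 33 (0.18) and Gramd3 2 against 15. Olfr1369 had 31 of its 39 counts in 1 cell. Among those lower at 6 h, Cspp1 and Sass6, genes of the centrosome and centriole, had 19 and 12 counts against 47 and 25, with log2 ratios of -0.19 and -0.20 in lung cells with none and an interval for Sass6, from -2.79 to -0.62, that reaches inside 2-fold. In blood members Cspp1 had 25 counts against 34 (log2 ratio 0.08) and Sass6 9 against 21 (-0.70). At 14 days Rab27b, a GTPase of granule release, had 5 counts against 42 in naive lung members, 15 of the 42 in 1 cell. Tmtc1 had 3 against 23, 11 of the 23 in 1 cell. In lung cells with none their log2 ratios were -1.93 and -2.13. In blood members Rab27b had 12 counts against 19 and Tmtc1 10 against 22. Acaca had 6 against 37 in lung members and Lactb2 7 against 35, with log2 ratios of -0.14 and -0.77 in lung cells with none. In blood members Acaca had 14 against 17 and Lactb2 17 against 15. Col19a1 had 0 against 25 in lung members, 14 of the 25 in 1 cell.

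The 5 genes with the largest ratios of 14 days to naive in lung members, of the 93 past 2-fold up, rested on 2 to 4 of the 29 cells. Cd74, the invariant chain of antigen presentation, had 81 counts in 3 cells, 48 of them in 1 cell, against 1 count in naive lung members. H2-Eb1, a class II histocompatibility gene, had 41 counts in 3 cells. C1qa and C1qb, complement genes of macrophages, had 48 and 45 counts in 2 cells. Cxcl10, a chemokine gene, had 36 of its 50 counts in 1 cell. These genes were also higher at 14 days in lung cells with none, where Cd74 had 636 counts against 19 (log2 ratio 4.84), H2-Eb1 241 against 4 (5.69) and Cxcl10 1278 against 75 (3.87). C1qa and C1qb had 92 and 91 counts against 0 in those cells, so none of the 5 was higher in members alone. The 12 myeloid markers were at 571 CPM in the 14-day lung members and at 194 to 262 CPM in the other 5 member sums, and without the 2 cells with C1q counts they were at 199 CPM. C1q counts were also found in 47 of 3130 lung cells with none at 14 days and in 1 or 0 cells of each other sample.

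Over all members 9 of 12 myeloid markers had a count, with Cst3 the most abundant (329 counts) and S100a8, S100a9 and Fcer1a at 0, and their sum was 275 CPM against 225 in cells with none. With cells that had C1q counts left out of both, 2 members and 49 cells with none, the sums were 218 and 219 CPM. Of the 3 myeloid markers tested, Cd68 (log2 difference 1.52 ± 0.44) and Itgax (0.39 ± 0.11) were higher, both named here because they were called. None of the 3 tested without the 14-day library and none of the 2 tested against matched cells was called. Of 12 T cell markers 7 had a count, led by Trbc1, with Cd3e, Cd4, Cd8a, Cd8b1 and Cd5 at 0, and the sum was 567 CPM against 616. Of 8 B cell markers 3 had a count, led by Ighm, with Ms4a1 and Pax5 at 0, at 46.4 CPM against 45.3. Of 9 erythroid and platelet markers 3 had a count, 4 counts in all. Of 9 endothelial and stromal markers 1 had a count, Pecam1, which leukocytes also express, and the sum was 83.2 CPM against 64.8. Pecam1 was higher by 0.47 ± 0.12 (edgeR adjusted p = 0.00155) in 5 of 6 pairs, a call that was lost in 7 alternatives, matched cells among them (0.03), and its log2 difference was -0.31 with the rule after thinning. Of 9 epithelial markers of mammary tumors 3 had a count and Krt8, Krt18 and Krt19 were at 0, at 11.8 CPM against 12.2. Of 8 markers of type 2 and 3 innate lymphoid cells 3 had a count, led by Gata3, at 61.7 CPM against 76.8. The 1 of these 8 that was tested was called lower, with a log2 difference of -0.33. Of the T cell, B cell, erythroid and mammary tumor markers 7, 1, 1 and 1 were tested and none was called.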

How the data were processed

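Gene and tag counts were the raw UMI counts deposited by the authors for all barcodes, made with Cell Ranger from 10x 3' libraries (7.1.0 in the file headers; GRCm38.p6, GENCODE M23 per the labels). Barcodes with 800 to 5000 detected genes, at most 6% mitochondrial counts and 1 tissue tag at 90% or more of tag counts were kept, which removed barcodes with both tags; no other doublet call was made, and 2 cells of the same tissue in a droplet remain. The pairing of tag and tissue was taken from the order in which the study names them. Counts were summed over cells per sample and class (12 sums) (324624 to 671750 UMIs in member sums, 14349740 to 30910445 in sums of cells with none), filtered with filterByExpr and tested in edgeR 4.0.16 (TMM, quasi-likelihood, library by tissue as block, the 4 rule genes left out). Tested on simulated data for this comparison, 96% of genes lowered and 98% of genes raised 2-fold were recovered (50 each), with 8 false calls among 10766 genes. The changed genes were drawn from those with at least 50 CPM in cells with none, with the same spread set for all genes. Recovery of rarer genes was not measured. Thinning to 3000 UMIs left out 265 shallower cells and no member. Exact binomial and Poisson intervals are for counting error only. Alternatives were DESeq2 1.42.0, other filters, left-out libraries, single tissues, UMI-matched cells and stricter rules. Named genes were the 15 largest and 15 smallest differences that were called, went the same way in 6 pairs and reached 50 CPM, and the most abundant or textbook genes of each list, from which a part is given. For time, they were the 5 largest and 5 smallest ratios of lung members at each time. The members and lists were chosen with earlier results of these data known. p-values measure the spread of the difference between 2 classes of cells over 6 pairs from 3 libraries, which are 3 time points.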

Additional observations from a re-analysis of the deposited data

Results flagged for a closer look

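Cells outside the comparisons also met the rule. Of 72 barcodes with 1 tissue tag that were left out for more than 5000 detected genes, 20 had counts of 2 or more of the 4 genes (27.8%, 95% exact interval 17.9 to 39.6), against 0.985% of the cells kept. Their median was 24961 UMIs, and 13 of them had all 4 genes. Of 634 barcodes with both tags, 15 met the rule (2.37%, 1.33 to 3.87), at a median of 13276.5 UMIs. At 14 days the share of both-tag barcodes was 0.746% (1 of 134), below the 1.03% of kept cells. With at least 3 of the 4 genes, 2 of the 634 both-tag barcodes met the rule (0.315%), against 0.322% of kept cells, and 17 of the 72 barcodes with more than 5000 genes (23.6%). The kept cells had a median of 6754 UMIs, and the part of depth was not tested.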

How the results depend on the processing

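The 2890 genes called between members and cells with none became 1457 in blood only, 959 with the rule after thinning, 1146 with matched cells, 192 without the top 5% of UMI counts, which left 100 members, and, chosen after seeing the data, 975 for exactly 2 and 624 for exactly 1 gene. Without 1 library the count ran from 1941 to 2480, and genes lower fell to 820 without the naive library. Genes higher were 52.9% of calls, 42.1% without TMM, 60.4% with DESeq2 and 27.7% with the rule after thinning, where the median over all genes was -0.44. The tissue difference of 0 genes became 2 to 19 without 1 library, 3 with at least 3 genes, 1 after thinning and 2 against all other cells. Shares became 0.354, 0.275, 0.427, 0.182, 0.252 and 0.435% with at least 3 genes, 0.306, 0.303, 0.431, 0.220, 0.396 and 0.388% after thinning, and 0.401, 0.410, 0.607, 0.613, 0.442 and 0.560% without the top 5% (naive, 6 h, 14 days, lung first). Genes past 2-fold were 105, 268, 234 and 275 (lung 6 h, lung 14 days, blood 6 h, blood 14 days), became 177 in lung and 371 in blood at 6 h without mitochondrial and ribosomal protein genes, and 495, 766, 931 and 768 with at least 3 genes. Of named genes, Klf2 (0.14) and Gzma (0.42) reversed against matched cells, Pecam1 (-0.31) after thinning, and H2ac4 (-0.14), Il2rb (0.00052), Cdkn1a (-0.32) and Gzmc (0.031) for exactly 1 gene. The cause of these changes was not tested. Time points could not be paired, since each is 1 library, and members and cells with none were paired within each sample in the main test. Each sample held between 25 and 50 members.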
